A study of Mus musculus with 2 samples.

Results

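The cells described here are the dividing cells of a mouse liver non-parenchymal preparation, taken from every lineage that the preparation held. Members were chosen by their Mki67 and Top2a counts: a cell was counted as cycling when it carried at least 5 UMIs (unique molecular identifiers, each standing for 1 captured transcript) of Mki67 and Top2a summed, among cells with under 10% mitochondrial UMIs and over 200 genes. This gave 612 cycling cells of 13603 cells kept, 268 of 7471 in the normal library and 344 of 6132 in the fibrosis library. Each cycling cell was given to the lineage with the most UMIs per 10000 among T/NK (Cd3e and Nkg7), B/plasma (Cd79a and Jchain), myeloid (Lyz2 and Csf1r), endothelial (Kdr and Ptprb), mesenchymal (Lrat and Col1a1) and erythroid (Alas2), and a tie or a cell at 0 in all of them stayed unassigned.

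The series holds 2 single-cell libraries, each from 1 male C57BL/6 mouse that was 8 weeks old. The mouse of the fibrosis library (F) received 15% CCl4, a hepatotoxin, in olive oil intraperitoneally at 0.6 µl per g, 2 times a week for 6 weeks, and the mouse of the normal library (Q, named quiescent in the labels) received olive oil alone. Livers were digested with collagenase by perfusion 48 h after the last injection, hepatocytes were spun out, and the remaining cells were run on the droplet platform of 10X Genomics. With 1 mouse per condition no difference between the libraries has a replicate check, so no p-value is given, and the 95% intervals below cover counting error only. A difference between libraries cannot be told apart from a difference between 2 mice or 2 cell preparations.

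A dividing cell copies its DNA in S phase and separates the copies in G2 and mitosis, and each step has its own transcripts. Mki67 coats condensed chromosomes and Top2a untangles DNA strands, whereas Cenpf sits at the kinetochore, Prc1 bundles the microtubules of the spindle midzone and Ube2c is the ubiquitin-conjugating enzyme that works with the anaphase-promoting complex. Resting liver has few dividing non-parenchymal cells, and Kupffer cells, the resident macrophages, renew themselves by local division. Hepatic stellate cells, which store vitamin A at rest, divide and lay down collagen after injury.

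Transcripts of late cell cycle genes are commonly held down in resting cells through a promoter element, TTTGAA, that is read together with CCAAT boxes upstream. The 5 marker genes are therefore shown with the 200 bases around their annotated start (RefSeq, GRCm38.p6, 5′ to 3′ on the coding strand), with every TTTGAA and CCAAT, read on either strand, in capitals. Mki67 is at chr7:135716360-135716559 on the minus strand, Top2a at chr11:99024170-99024369 on the minus strand and Cenpf at chr1:189688067-189688266 on the minus strand. Prc1 is at chr7:80294271-80294470 and Ube2c at chr2:164769749-164769948, both on the plus strand.
Mki67: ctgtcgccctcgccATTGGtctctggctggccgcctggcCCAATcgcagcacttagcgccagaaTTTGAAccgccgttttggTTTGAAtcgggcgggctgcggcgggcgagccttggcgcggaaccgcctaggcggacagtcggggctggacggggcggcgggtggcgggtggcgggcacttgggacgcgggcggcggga
Top2a: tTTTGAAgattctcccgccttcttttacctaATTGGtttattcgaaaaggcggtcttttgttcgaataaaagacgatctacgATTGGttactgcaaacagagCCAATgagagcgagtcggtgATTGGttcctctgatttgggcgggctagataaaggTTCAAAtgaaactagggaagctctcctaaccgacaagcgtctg
Cenpf: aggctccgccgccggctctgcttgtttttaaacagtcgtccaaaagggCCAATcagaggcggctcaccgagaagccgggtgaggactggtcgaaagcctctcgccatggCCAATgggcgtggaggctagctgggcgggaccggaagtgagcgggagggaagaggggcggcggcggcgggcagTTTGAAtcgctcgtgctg
Prc1: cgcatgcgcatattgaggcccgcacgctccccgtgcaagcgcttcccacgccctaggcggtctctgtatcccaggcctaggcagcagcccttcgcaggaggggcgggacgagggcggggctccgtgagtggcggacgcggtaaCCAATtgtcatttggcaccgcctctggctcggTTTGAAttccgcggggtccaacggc
Ube2c: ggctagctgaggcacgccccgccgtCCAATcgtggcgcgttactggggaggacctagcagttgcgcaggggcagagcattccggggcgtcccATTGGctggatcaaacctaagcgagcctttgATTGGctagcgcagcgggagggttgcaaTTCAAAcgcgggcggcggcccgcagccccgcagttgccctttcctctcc
In the 300-base windows from 250 bases before to 50 after a start, both words were present in 5 of 5 markers. Over all 27025 gene symbols with such a window, 20.2% held TTTGAA, 41.1% held CCAAT and 7.97% held both. Of the 49 genes of the G2/M list used below, 43 had a window, and 24 of those (55.8%) held both words. A match is a run of letters in the reference and not a measured binding site.

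The cycling cells were deeper than the rest. Their UMIs ran from 1558 through a median of 11743.5 to 51334 in the normal library and from 970 through 18596 to 116430 in the fibrosis library, against medians of 4109 and 5253.5 in the other kept cells. They held a median of 4149 and 5230.5 genes, and the other cells 2020 and 2561.5. Mitochondrial shares were close, with medians of 5.95% and 5.89% in cycling cells and 6.65% and 6.24% in the others. The barcodes shared by both libraries numbered 15, and 0 of them belonged to a cycling cell.

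Few members sat at the threshold of 5 UMIs. The summed Mki67 and Top2a UMIs of the members had a median of 25 in the normal library (range 5 to 104) and 25.5 in the fibrosis library (range 5 to 166). Just inside the threshold, at 5 UMIs, stood 16 normal and 20 fibrosis cells, and just outside it, at 4 UMIs, stood 26 and 46. Of the kept cells, 6175 and 4077 had 0 UMIs of either gene. The members held 85.2% of all Mki67 and Top2a UMIs of the normal library and 84.5% of those of the fibrosis library.

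The plot of cycling share by depth shows how closely the count followed the depth of the cell. The share rose from 0.224% of normal cells under 2000 UMIs to 10.7% from 8000 to under 16000 UMIs and 28.1% from 16000 to under 32000. Among fibrosis cells it rose from 0.134% to 7.91% and 15.7% over the same bins, and to 46.5% (92 of 198) at 32000 UMIs or more. From 8000 to under 32000 UMIs the fibrosis share was thus the lower one, and the fibrosis library had more cells in the deepest bin.

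**Figure D1:**
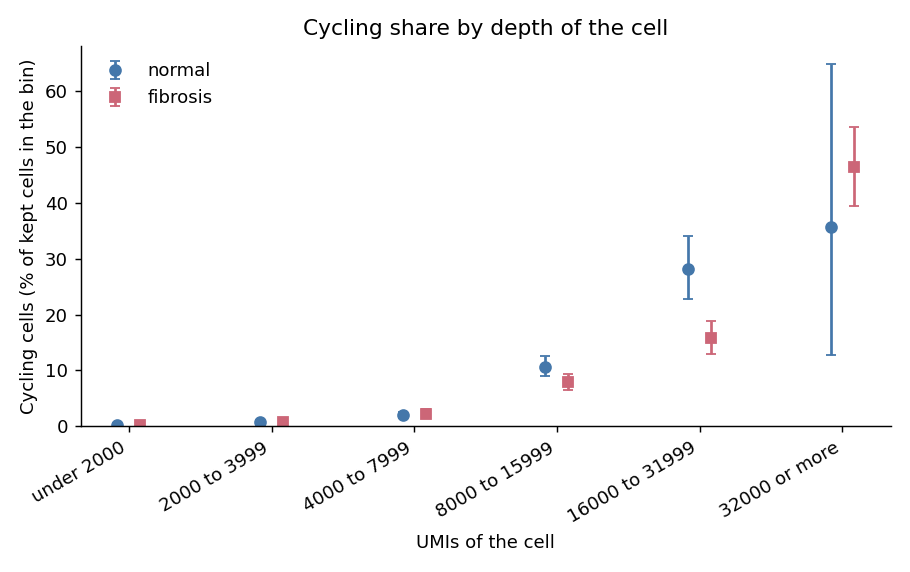
Cycling cells as a percentage of the kept cells of each depth bin (y axis) against the UMIs of the cell (x axis), with exact binomial 95% intervals, normal as circles and fibrosis as squares. Both libraries climb with depth, from under 1% below 4000 UMIs to 35.7% and 46.5% in the deepest bin, where the normal library has 14 cells.

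By this count 3.59% of normal cells (3.18 to 4.03) and 5.61% of fibrosis cells (5.05 to 6.22) were cycling. When each cell of at least 2000 UMIs was thinned to 2000 UMIs and called at 2 or more, the shares were 4.22% (259 of 6131) and 6.06% (281 of 4640). That step left out 1340 and 1492 shallower cells and found 218 and 231 of the members again. Pooled over all kept cells, Mki67 and Top2a stood at 2.18 UMIs per 10000 (2.13 to 2.22) among normal and 2.92 (2.87 to 2.96) among fibrosis cells, with a ratio of 1.34 (1.31 to 1.38). Cenpf, Prc1 and Ube2c, which did not enter the rule, stood at 1.45 and 2.21, a ratio of 1.53 (1.48 to 1.58). All of these measures put the fibrosis library above the normal one, but all except the last rest on the genes of the rule. Within depth bins the Mki67 and Top2a rate did not keep this order. From 8000 to under 16000 UMIs it was 2.89 in normal and 2.02 in fibrosis cells. From 16000 to under 32000 UMIs it was 6.42 and 2.81, and in every other bin the fibrosis rate was the higher one.

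The lineages of the cycling cells differed between the libraries in the mesenchymal and B/plasma groups. In the normal library 124 of the 268 cycling cells were endothelial (46.3%), 70 myeloid (26.1%), 34 B/plasma (12.7%), 27 T/NK (10.1%), 4 mesenchymal (1.49%) and 9 unassigned. Of the 344 fibrosis members, 124 were endothelial (36%), 106 myeloid (30.8%), 84 mesenchymal (24.4%), 15 T/NK (4.36%), 3 B/plasma (0.872%) and 12 unassigned. These shares moved with the settings. Below 5% mitochondrial UMIs the normal members were 28.8% endothelial and 36.3% myeloid, so that the order of both turned. With scaled lineage scores 5.22% of normal members were mesenchymal and 5.23% of fibrosis members B/plasma. By the rule no erythroid cell was cycling in either library. By a floor of 3 counts, the cycling erythroid count of 0 of 340 normal cells allows a share of up to 0.882%, and 0 of 10 in the fibrosis library allows up to 30%. Other settings did find some, among them 1 of 315 normal erythroid cells after thinning and 7 normal and 5 fibrosis members called erythroid by scaled lineage scores.

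**Figure D2:**
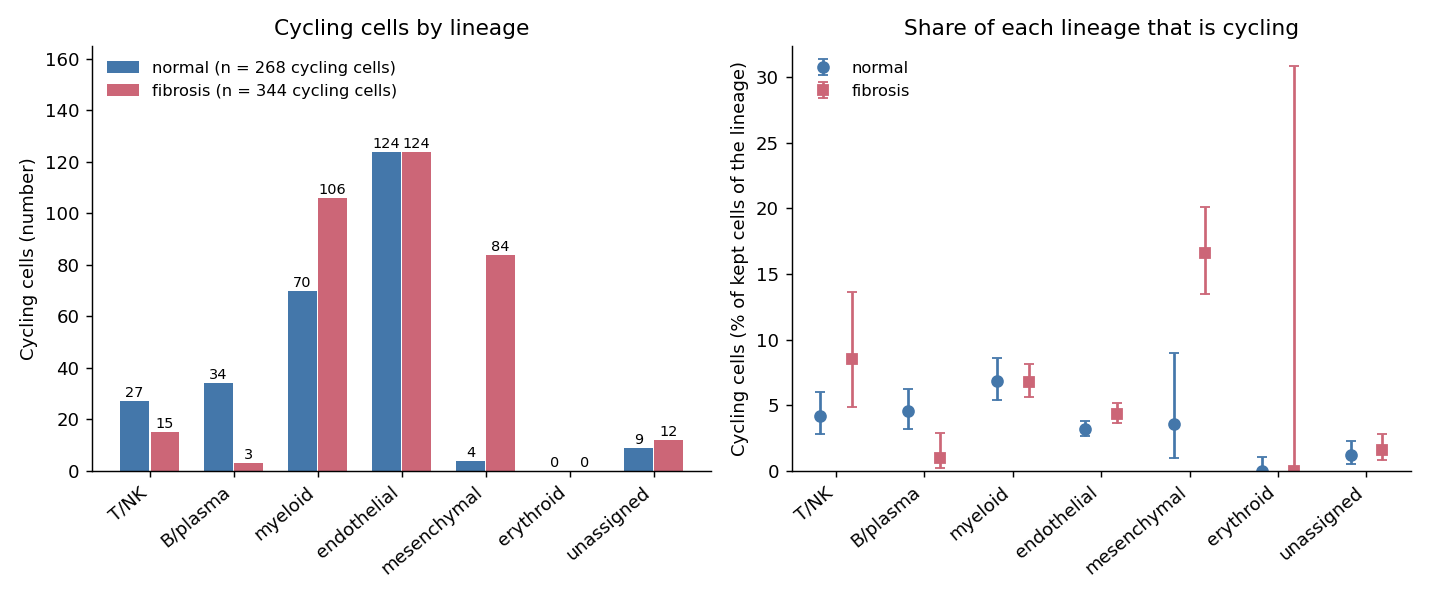
Left, the number of cycling cells of each lineage in the normal and fibrosis libraries. Right, the percentage of the kept cells of each lineage that were cycling, with exact binomial 95% intervals; the mesenchymal share is 3.60% for normal and 16.6% for fibrosis, and the B/plasma share 4.53% and 0.997%.

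Read against the size of each lineage, the order of the lineages also changed. Of the normal lineages the myeloid cells had the highest share, 6.86% (70 of 1021, 5.38 to 8.58), followed by B/plasma cells at 4.53% (34 of 750, 3.16 to 6.28) and T/NK cells at 4.19% (27 of 644, 2.78 to 6.04). Mesenchymal cells stood at 3.60% (4 of 111, 0.990 to 8.97) and endothelial cells at 3.22% (124 of 3850, 2.69 to 3.83). The intervals of neighbours in this order overlapped, and that of the myeloid cells lay above that of the endothelial cells. After CCl4 the mesenchymal cells led at 16.6% (84 of 506, 13.5 to 20.1), with T/NK cells at 8.52% (15 of 176, 4.85 to 13.7) and myeloid cells at 6.79% (106 of 1560, 5.60 to 8.16). Endothelial cells followed at 4.37% (124 of 2838, 3.65 to 5.19) and B/plasma cells came last at 0.997% (3 of 301, 0.206 to 2.88). The mesenchymal and T/NK intervals overlapped narrowly, those of T/NK and myeloid cells overlapped, and those of myeloid, endothelial and B/plasma cells lay apart from each other. Below 5% mitochondrial UMIs the fibrosis T/NK share was 4.76%, under the myeloid one of 6.67%, and at a threshold of 3 UMIs the fibrosis B/plasma share was 2.99%.

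A share of cells depends on depth and on the lineage call, so the pooled rate of Mki67 and Top2a is given for each lineage. Mesenchymal cells went from 1.90 UMIs per 10000 (1.63 to 2.20) in the control mouse to 6.05 (5.88 to 6.22) after CCl4, which is 3.18 times higher (2.74 to 3.71). B/plasma cells went the other way, from 3.75 (3.57 to 3.95) to 1.47 (1.25 to 1.72), a ratio of 0.391 (0.330 to 0.461). T/NK cells stood at 4.28 and 8.06 (ratio 1.88, 1.70 to 2.08). The wider call described next leaves these ratios at 3.73, 0.331 and 1.42. The order of the lineages by pooled rate turned with the genes and the call. Fibrosis T/NK cells (7.42 to 8.75) lay above mesenchymal cells by the rule, but below them in the wider call, at 5.28 against 5.93, and by Cenpf, Prc1 and Ube2c, at 3.41 against 5.66. Normal T/NK cells lay above normal myeloid cells, which stood at 3.14, but by Cenpf, Prc1 and Ube2c in the wider call they lay below, at 1.78 against 2.24. Below 5% mitochondrial UMIs, normal B/plasma cells also had a higher cycling share than myeloid cells, 12.4% against 8.95%.

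Myeloid and endothelial cells were the largest lineages. The myeloid rate was 3.14 among normal and 2.44 among fibrosis cells, with a ratio of 0.776 (0.736 to 0.819), although the UMIs of both genes per myeloid cell were 1.21 times higher in the fibrosis library, whose myeloid cells were deeper. The endothelial rate was 1.61 and 2.08, a ratio of 1.30 (1.24 to 1.35). This endothelial rise was absent from the wider call, where the rates were 1.47 and 1.48 and the ratio 1.01 (0.961 to 1.06). Cenpf, Prc1 and Ube2c gave ratios of 3.94 in mesenchymal, 0.392 in B/plasma, 1.62 in T/NK, 0.700 in myeloid and 1.35 in endothelial cells, with 1.05 for endothelial, 0.631 for myeloid and 1.30 for T/NK cells in the wider call.

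Both genes of the rule varied widely from cell to cell within a lineage. Mki67 ran from 0 through a median of 16.5 to 86 UMIs in fibrosis mesenchymal members and from 0 through 7 to 51 in fibrosis endothelial ones. In the normal library it ran from 4 through 25 to 51 in B/plasma, from 3 through 17 to 42 in T/NK, from 1 through 12 to 33 in myeloid and from 0 through 7 to 38 in endothelial members. The ranges overlapped in all lineages. Of the members, 3 normal and 11 fibrosis ones held Top2a without any Mki67, and 12 and 10 held Mki67 without any Top2a.

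The wider call gave each cell to the lineage with the highest mean of ln(1 + UMIs per 10000) over a list of 10 genes, in place of the 1 or 2 genes of the rule. It named the same lineage for 27 of 27 T/NK, 31 of 34 B/plasma, 66 of 70 myeloid, 116 of 124 endothelial and 4 of 4 mesenchymal cycling cells of the normal library. For fibrosis cells it named the same lineage for 14 of 15 T/NK, 2 of 3 B/plasma, 92 of 106 myeloid and 83 of 84 mesenchymal cells, but for only 90 of 124 endothelial cells (72.6%). It counted 127 mesenchymal cycling cells there, of which 32 had been endothelial and 8 myeloid by the rule. The lineage marks of the fibrosis endothelial group were therefore mixed, and its values are given apart below.

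Within each lineage the cycling cells carried transcripts of S phase and of G2/M beyond the chosen genes. Since Mki67 and Top2a picked the cells, the levels of other cell cycle genes in them are descriptions with no test, and a gene that reached 0.2 UMIs per 10000 only in the cycling cells had to be higher there. Over all lineages Cenpf stood at 4.39 UMIs per 10000 in cycling against 0.0735 in other normal cells and at 4.02 against 0.105 in fibrosis cells. Prc1 stood at 3.44 against 0.0677 and at 3.66 against 0.173, and Ube2c at 6.17 against 0.147 and at 3.55 against 0.218. Every one of the 3 markers outside the rule was thus over 10 times higher in the cycling cells of both libraries. At 3 UMIs or more, Cenpf was found in 148 of 268 and 193 of 344 members, Prc1 in 146 and 198 and Ube2c in 143 and 201.

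Of the genes of the G2/M list that reached 0.2 UMIs per 10000, nearly all were at least 2 times higher in the cycling cells, 47 of 47 in T/NK, 46 of 46 in B/plasma, 47 of 47 in myeloid and 48 of 48 in normal endothelial cells. Over all genes at that level, those at least 2 times higher made up 10.2%, 11.7%, 7.59% and 7.88% of them. Fibrosis counts were 46 of 46 T/NK, 46 of 47 myeloid, 46 of 47 endothelial and 47 of 49 mesenchymal, against 10.6%, 6.7%, 7.91% and 5.83% of all genes. The median ratio of the G2/M genes ran from 10.1 in fibrosis endothelial to 35.6 in normal endothelial cells, where the medians over all genes were 0.985 and 1.02. The S-phase ratios were smaller in all 8 of these groups, with medians from 3.57 to 7.17 and 32 to 37 genes at least 2 times higher, of 37 to 41.

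The genes of the division machinery were higher in the cycling cells of every group. All measured kinetochore genes (15 or 16) and all 14 spindle genes, among them the motors Kif11 and Kif23, were at least 2 times higher in cycling cells of each of the 8 groups. The nucleotide supply genes, which make the building blocks of DNA, were 7 of 7 in all 8. The summed replication helicase genes, which open DNA ahead of copying, were between 2.41 times (fibrosis endothelial) and 4.70 times (normal myeloid) their level in the other cells.

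Genes of entry into the cycle gave other values. Of the D cyclins, which link growth signals to the start of the cycle, 0 of 3 were at least 2 times higher in any group. In normal T/NK cells, Ccnd2 was at 2.73 UMIs per 10000 in cycling and 7.84 in other cells (ratio 0.349, 0.277 to 0.434), and it was at 2.05 and 8.10 in fibrosis T/NK cells (ratio 0.253, 0.172 to 0.360). The E, A and B cyclins, which work later, were higher by 2 times or more in all of those measured. Genes linked to quiescence, such as Btg1 and Klf2, were summed at 0.381 times the level of the other cells in normal B/plasma, 0.511 in normal T/NK and 0.449 in fibrosis T/NK cells. In the endothelial, myeloid and mesenchymal groups that ratio was between 0.646 and 0.812.

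The cell cycle inhibitor Cdkn1a, a target of p53, differed in direction between lineages. In normal endothelial cells it stood at 4.66 UMIs per 10000 in cycling and 1.60 in other cells (ratio 2.92, 2.68 to 3.18), and 76 of 124 members held 3 UMIs or more. In fibrosis endothelial cells it stood at 3.84 and 3.47 (ratio 1.11, 1.04 to 1.18). The level in cycling cells was thus lower in the fibrosis library, and that in other cells higher. In myeloid cells Cdkn1a was lower in the cycling cells, at 0.921 against 1.21 in normal and 1.75 against 2.49 in fibrosis cells. In fibrosis mesenchymal cells it was at 1.87 against 1.18.

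The share of S-phase transcripts was highest in the fibrosis endothelial members. Mki67 and Top2a, which the G2/M list leaves out, are themselves highest in G2/M, so a lean of the members towards G2/M is not independent of the rule. For each cell the S-phase UMIs were taken as a share of its S-phase and G2/M UMIs, so that each cell is set against its own UMIs. The median was 24.4% over normal members (range 0 to 75.4%) and 30.9% over fibrosis members (range 1.72 to 75%). Normal medians ran from 19.5% in T/NK and 20.6% in B/plasma to 24.0% in myeloid and 27.0% in endothelial cells. Among fibrosis members the endothelial median was 42.8%, the T/NK median 31.4%, the myeloid median 27.5% and the mesenchymal median 18%. The higher share came with a lower G2/M level, at 79.3 UMIs per 10000 in fibrosis against 129 in normal endothelial members, and the S-phase level was also lower, at 36.2 against 43.6. The fibrosis endothelial members were also deeper than the normal ones, with medians of 19042 and 9892 UMIs, and the part of depth in the S-phase share was not tested.

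**Figure D3:**
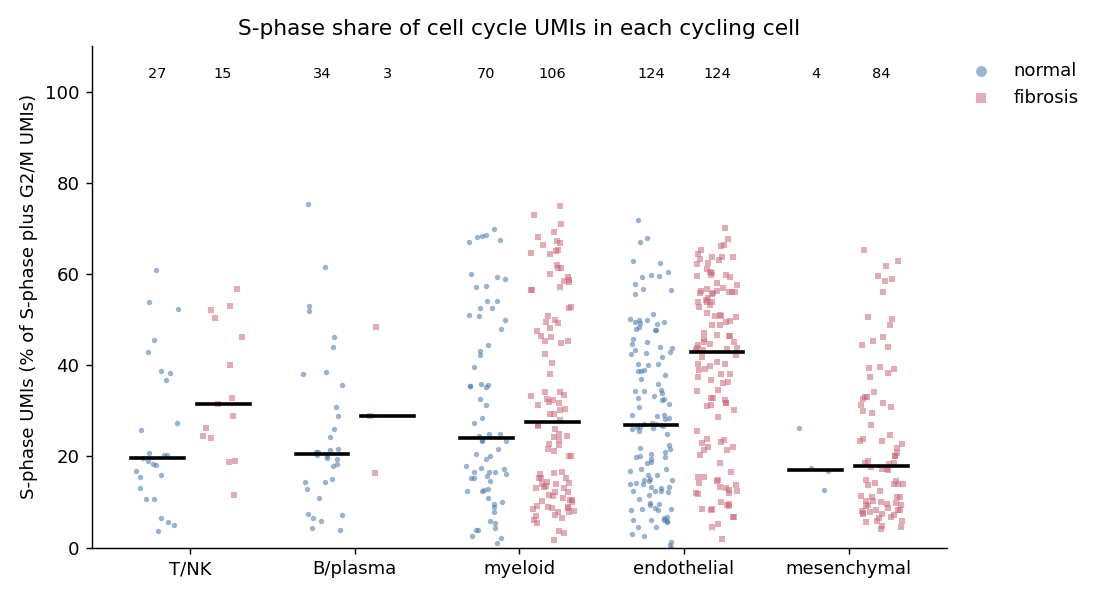
Each point is 1 cycling cell, placed by its S-phase UMIs as a percentage of its S-phase plus G2/M UMIs (y axis) in its lineage (x axis), normal as circles and fibrosis as squares, with the group median as a bar and the number of cells above. Points of the myeloid and endothelial groups spread from under 2% to 69.9% or more, with the endothelial median moving from 27.0% to 42.8% between libraries.

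S-phase UMIs outnumbered G2/M UMIs in 44 of the 124 fibrosis endothelial members (35.5%) and in 15 of the 124 normal ones (12.1%). The counts in myeloid cells were 17 of 70 (24.3%) and 26 of 106 (24.5%), and in fibrosis mesenchymal cells 9 of 84 (10.7%). Within the fibrosis endothelial members, the 90 that the wider call also named endothelial had a median S-phase share of 46.8%, and the 32 it named mesenchymal one of 19.3%. The normal members that the wider call named endothelial had a median of 27.6%. The S-phase cyclin Ccne2 stood at 0.947 UMIs per 10000 in all fibrosis endothelial members together and at 0.323 in the fibrosis mesenchymal members. At 16000 UMIs or more, the medians of the members that both calls named endothelial were 32.8% for normal and 44.6% for fibrosis. T/NK and myeloid medians were also higher among fibrosis members, and none of these differences has a replicate check.

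The cycling endothelial cells of the normal liver carried genes of sinusoidal endothelium. Stab2, a scavenger receptor of sinusoidal cells, had at least 3 UMIs in 97 of 124 members. Kdr, the main VEGF receptor and a gene of the rule, had as many in 106, and both genes in 94. Stab2 stood at 7.66 UMIs per 10000 in cycling and 8.51 in other endothelial cells, and at 0.836 in cells of the other lineages. The hyaluronan receptor Lyve1 was level at 3.01 and 2.96, and the lectin Clec4g was at 10.9 and 16.6. Summed over the list, sinusoidal genes were at 0.785 times the level of the other endothelial cells, with 0 of 5 genes past 2 times either way. Some lists of other cell types were higher in these members. The type 1 dendritic list was at 3.03 against 1.13 UMIs per 10000, with 2 of 4 genes at least 2 times higher, and the list of genes shared by dendritic cells at 12.4 against 4.93, with 3 of 4. The stellate list was at 5.43 against 2.90, with 2 of 7, where 7.88% of all genes were at least 2 times higher. Flt3 reached 3 UMIs in 10 members, of which 3 also held Kdr, and the part of such cells in the endothelial values was not tested.

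Genes of the portal side of the sinusoid were lower in the normal cycling endothelial cells. The zone 1 list was at 8.75 against 18 UMIs per 10000 (ratio 0.486, 0.458 to 0.514), with 4 of 5 genes at least 2 times lower, where 4.38% of all genes were. Efnb2, an arterial ligand, was at 0.465 against 1.29, Dll4, a Notch ligand, at 0.565 against 1.28, and Msr1, a scavenger receptor, at 1.45 against 3.24. The zone 3 list was at 7.12 against 11.3 (ratio 0.629), with Wnt2 at 1.44 against 2.02 and Rspo3 at 1.67 against 3.27. Vwf, which marks larger vessels, was at 0.636 against 1.93, and the capillary list at 3.55 against 9.42, in which Ly6a was at 1.47 against 6.02. Kit, a growth factor receptor, was close at 2.57 and 2.71. Like all cycling cells these were the deeper ones, with a median of 9892 UMIs against 4953, and the part of depth in the lower ratios was not tested.

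In the fibrosis library the zone 1 ratio was nearer to 1, and the difference between libraries was not tested. Zone 1 genes were at 9.99 against 16.8 UMIs per 10000 (ratio 0.596, 0.574 to 0.619), with 3 of 5 genes at least 2 times lower against 1.52% of all genes. Zone 3 genes were close, at 11 against 11.3 (ratio 0.972, 0.937 to 1.01), and the capillary list was at 9.66 against 10.1. Plvap, which forms the diaphragms of endothelial openings, was at 5.71 in cycling and 3.15 in other cells, but the 32 members that the wider call named mesenchymal held it at 9.73 (9.19 to 10.3) and the 90 named endothelial by both calls at 2.75 (2.51 to 3.02), against 2.65 in the other cells of both calls. The higher Plvap of the cycling cells was thus absent from the 90. In those 90 members the zone 1 list was at 11.5 against 17.7, the zone 3 list at 11.1 against 11.9, the capillary list at 7.92 against 10.0 and Rspo3 at 1.95 against 1.70. Over all 124 members Efnb2 and Vwf were low, at 0.491 against 1.16 and 0.214 against 0.629. In the 90 members they stayed lower, at 0.611 against 1.24 and 0.318 against 0.662.

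A second set of transcripts ran through the fibrosis endothelial members. Col1a1 reached 3 UMIs together with Kdr in 51 of 124 of them (41.1%), against 1 of 124 in the normal library, and Lrat together with Stab2 in 39, against 5. Endothelial cells that were not cycling also held Kdr with Col1a1, 237 of 2714 in the fibrosis library (8.73%). At 16000 UMIs or more they were 105 of 240 (43.8%), and the cycling ones 49 of 73 (67.1%). The stellate list was at 23.6 UMIs per 10000 in cycling and 7.42 in other endothelial cells, with 7 of 7 genes at least 2 times higher where 7.91% of all genes were. The myofibroblast list, led by Acta2 and Tagln, was at 11.8 and 4.03. Col1a1 itself was at 4.12 in cycling and 1.85 in other endothelial cells. The wider call was used to divide the members.

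The wider call uses mesenchymal genes, so the levels on its 2 sides describe the division and are no separate result. The pairs of Kdr with Col1a1 (51 members) and Stab2 with Lrat (39) were more numerous than the 32 members named mesenchymal. The 32 members that the wider call named mesenchymal held Col3a1 at 21.9, Reln at 8.66, Lrat at 4.50 and Acta2 at 2.48 UMIs per 10000, with Kdr at 10.8 and Stab2 at 5.01. The 90 members named endothelial by both calls held Col3a1 at 1.62, Reln at 1.19, Lrat at 0.684 and Acta2 at 0.721, against 1.34, 0.746, 0.488 and 0.321 in the endothelial cells of both calls that were not cycling, with Kdr at 19.9. In the first set 30 of 32 cells held 3 or more UMIs of Lrat and 30 held as many of Stab2.

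**Figure D4:**
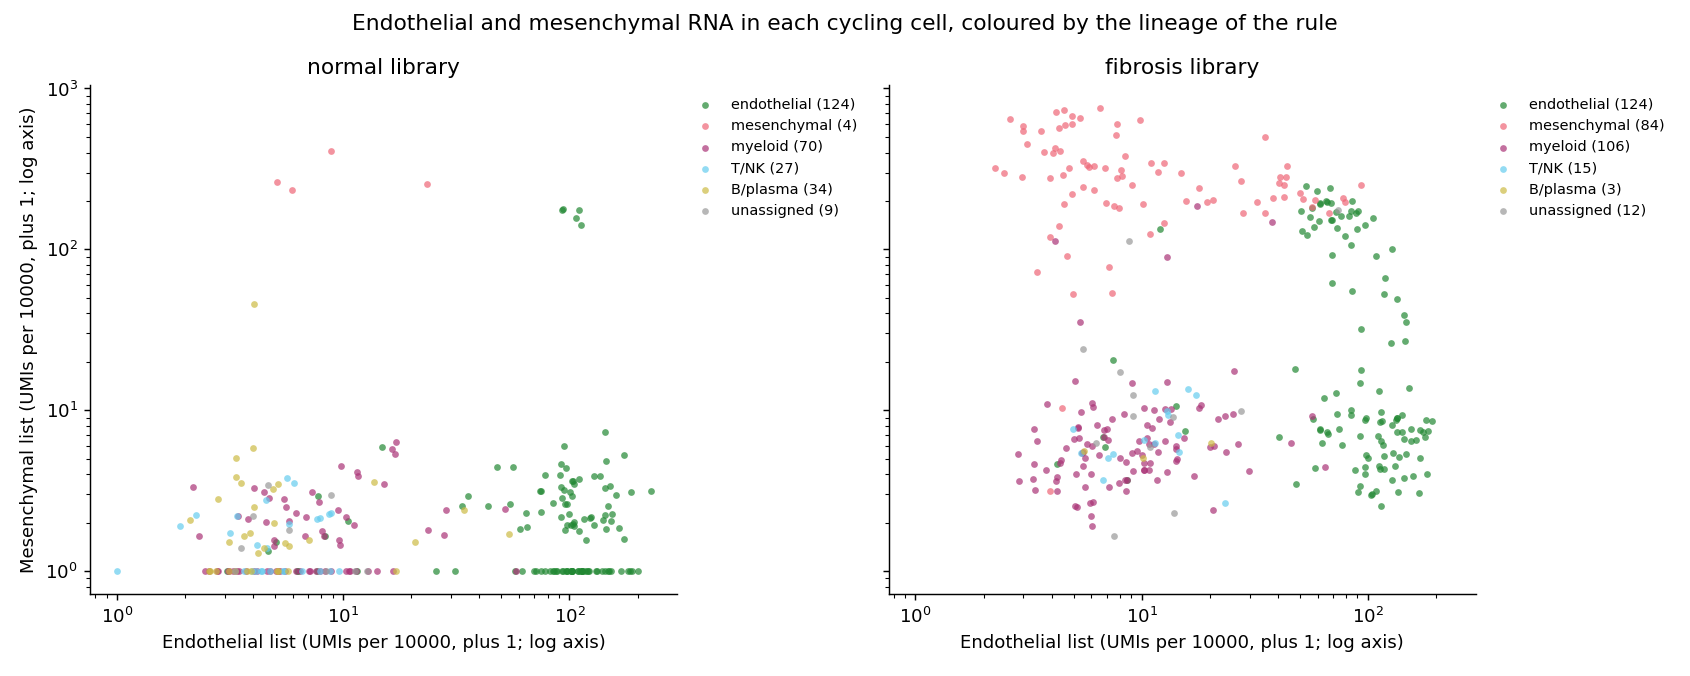
Each point is 1 cycling cell, with the UMIs per 10000 of the endothelial list on the x axis and of the mesenchymal list on the y axis, both plus 1 on log axes and coloured by the lineage of the rule. In the fibrosis library a set of endothelial cells lies at the top right, high on both lists, next to the mesenchymal cells, and the other endothelial cells lie at the bottom right; in the normal library 5 endothelial cells lie high on both.

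Depth and doublet scores were higher in this mixed set than in the other endothelial members, and near those of the mesenchymal members. Its cells had a median of 36257.5 UMIs and a median Scrublet doublet score of 0.100, against 15263.5 UMIs and 0.0637 in the endothelial members that the wider call kept. The fibrosis mesenchymal members of the rule had medians of 33492.5 UMIs and 0.0901. Among cells of 16000 UMIs or more, the wider call named 30 of 73 cycling endothelial cells mesenchymal (41.1%, 29.7 to 53.2), and 41 of 240 other endothelial cells (17.1%, 12.5 to 22.5). In the normal library those counts were 2 of 21 and 15 of 101. Whether these droplets held 1 cell or 2 was not tested, and Scrublet called only 1 doublet in each library. The endothelial rates by the rule and by the wider call are those given above.

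The mesenchymal members of the fibrosis library carried stellate and myofibroblast genes. Of the 84 members, 65 held 3 or more UMIs of Reln, a stellate gene, and 58 of Acta2, smooth muscle actin. Of the genes of the rule, Col1a1 reached 3 UMIs in all 84 and Lrat, which makes retinyl esters, in 61. Lrat and Acta2 occurred together in 41. Reln stood at 7.16 UMIs per 10000 in cycling and 9.43 in other mesenchymal cells, Lrat at 4.66 and 8.22, Acta2 at 5.67 and 7.44 and Tagln at 5.93 and 7.87. None of these genes was past 2 times either way, so stellate and contractile transcripts stood within 2 times of the other mesenchymal cells. Col1a1 was at 68.3 against 82.7 and Col3a1 at 67.8 against 78.0, while Postn, a matrix protein of activated fibroblasts, was at 8.65 against 7.15.

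Mesothelial genes were lower in the cycling cells. The mesothelial list was at 4.44 against 11 UMIs per 10000 (ratio 0.405, 0.381 to 0.430), with 3 of 5 genes at least 2 times lower where 1.49% of all genes were, and Upk3b reached 3 UMIs in 8 of 84 members. The portal fibroblast list was at 7.45 against 12.8 (ratio 0.584), but 1 of its 4 measured genes was at least 2 times lower, Dpt, at 3.44 against 7.03. Of the growth factor receptors, Pdgfra was at 3.60 against 3.75 and Pdgfrb at 2.58 against 4.50. The stellate list was at 0.749 and the myofibroblast list at 0.845 times the level of the other mesenchymal cells. RNA of other lineages was present too, with 3 or more UMIs of Stab2 in 29 and of Lyz2 in 54 of the 84 members, at levels of 1.75 and 2.87 against 1.34 and 2.75 in the other mesenchymal cells. The hepatocyte list was at 22.6 against 10.7 (ratio 2.12, 2.04 to 2.19), with 4 of 5 genes at least 2 times higher where 5.83% of all genes were, and its part in these values was not tested.

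The 4 cycling mesenchymal cells of the normal library carried stellate genes. Every one held 3 or more UMIs of Reln, and 0 held Acta2. Of the genes of the rule, Lrat reached 3 UMIs in all 4 and Col1a1 in 1. Reln stood at 17.1 UMIs per 10000 (13.8 to 21.0) in them and 9.69 in the other mesenchymal cells, and Col1a1 at 1.14 (0.419 to 2.48) and 22.8. Of the 4, 1 had both a T/NK and an endothelial score at 0.5 times its top score or more. The T/NK list was at 8.18 against 4.41. With 4 cells these levels rest on few UMIs, and the exact Poisson upper bound for Acta2 at 0 UMIs is 0.702 per 10000.

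Cycling myeloid cells of the normal liver carried Kupffer genes and genes of dendritic cells, with Clec4f and Flt3 at 3 UMIs or more in separate cells. Clec4f, a lectin of Kupffer cells, had 3 or more UMIs in 29 of 70 members, and all 29 also held Cd5l and 19 Timd4. Xcr1, the chemokine receptor of type 1 dendritic cells, was found in 19 and Clec9a in 18, with 17 holding both. Flt3, the receptor of the dendritic growth factor, was in 23 members, none of which held Clec4f, and 18 members held neither. Relative to the other myeloid cells the type 1 dendritic genes and Flt3 were higher, with Xcr1 at 2.75 against 1.05 UMIs per 10000, Clec9a at 1.59 against 0.695 and Flt3 at 1.5 against 0.692. The type 1 dendritic list had 3 of 4 genes at least 2 times higher, where 7.59% of all genes were. The list shared by dendritic cells was also higher, at 53.0 against 32.3. The type 2 list was lower, at 4.43 against 6.09, and so was the plasmacytoid list, at 1.23 against 3.37. The Kupffer list was at 42.6 against 49.3, with Clec4f at 15.6 against 18.7 and Cd5l at 14.7 against 17.8, while Marco, a scavenger receptor and the 1 of its 6 genes past 2 times, was higher at 3.32 against 1.23.

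Genes of mature neutrophils were low in the normal cycling myeloid cells. Their list was at 5.93 against 31.9 UMIs per 10000 (ratio 0.186, 0.170 to 0.202), with 5 of 5 genes at least 2 times lower where 9.14% of all genes were. Of the 206 S100a8 UMIs, 94.2% came from 1 member. A single cell also held 99.7% of the 601 UMIs of Camp and all 350 of Ngp, both granule genes of neutrophil precursors. Lyz2, a gene of the rule, was at 12.6 in cycling and 42.2 in other myeloid cells and at 0.657 in other lineages.

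In the fibrosis liver the cycling myeloid cells carried Kupffer genes and genes of scar-associated macrophages, partly in the same cells. Clec4f had 3 or more UMIs in 60 of 106 members, Trem2, a lipid receptor, in 51 and Gpnmb, a lysosomal protein of scar macrophages, in 42. Clec4f and Gpnmb were found in the same cell in 21 members, and 25 held neither. In the normal library Gpnmb had 0 UMIs in the 70 cycling myeloid cells. Clec4f levels were 10.2 UMIs per 10000 in cycling and 9.83 in other cells, and those of Cd5l 21.2 and 21.8, and the Kupffer list was at 49.9 and 49.1 (ratio 1.02, 0.997 to 1.04).

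Scar macrophage genes were present at lower levels in the cycling cells. The list was at 36.7 against 69.7 UMIs per 10000 (ratio 0.526, 0.514 to 0.539), with Gpnmb at 13.1 against 23.0, Spp1 at 8.37 against 24.3 and Trem2 at 4.82 against 6.13. Only 1 of 5 genes was at least 2 times lower, where 1.49% of all genes were. Xcr1 was again higher in the cycling cells, at 0.306 against 0.140 and 0.0589 in other lineages, but only 8 of 106 members held 3 UMIs of it. In the normal library 19 of 70 did.

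The cycling B/plasma cells of the normal liver carried genes of antibody-secreting cells. Jchain, which joins antibody chains and belongs to the rule, had 3 or more UMIs in 29 of 34 members and Sdc1, a surface marker of plasma cells, in 23, with 22 holding both. Mzb1, an endoplasmic reticulum protein of antibody secretion, stood at 29.1 UMIs per 10000 in cycling and 11.5 in other cells, Xbp1 at 13.5 and 6.78, Irf4 at 2.83 and 1.5 and Prdm1 at 1.25 and 0.6. The plasma cell list as a whole was at 203 against 171 (ratio 1.19, 1.16 to 1.21), with 3 of 7 genes at least 2 times higher where 11.7% of all genes were, and Jchain was level at 150 and 148. The genes of resting B cells were lower, with all 5 of their list past 2 times where 17.4% of all genes were. Ighd was at 0.358 against 5.73 and Ms4a1 at 2.27 against 4.68. Ms4a1 reached 3 UMIs in 8 of the 34. In the fibrosis library 3 B/plasma cells were cycling, of which 2 held both Jchain and Sdc1. Pooled over these 3 cells, the T/NK list was at 24.8 against 2.98 (93 UMIs in all) and the CD8 list at 6.41 against 0.397. Only 1 of the 3 held any UMI of Cd3e or Nkg7, and the wider call named 1 of them T/NK.

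The cycling T/NK cells of the normal liver carried genes of several T cell types. Nkg7, a gene of the rule that T and NK cells share, had 3 or more UMIs in 20 of 27 members. Cd3e, a CD3 chain of the T-cell receptor complex and a gene of the rule, had as many in 16 and Cd8a in 8. Cd4 was found in 4 and the gamma-delta chain gene Trdc in 3, whereas the NK receptor Ncr1 was found in 1. The NK list was at 6.32 against 19.2 UMIs per 10000 (ratio 0.329, 0.283 to 0.380), with 5 of 6 genes at least 2 times lower where 13.8% of all genes were. Within it Klrb1c was at 0.228 against 2.33 and Gzma, a granzyme, at 4.95 against 12.5. Ikzf2, a transcription factor of regulatory T cells, was at 4.49 against 1.34 with 30.4% of its UMIs in 1 cell. Trdc was at 3.00 against 0.552 with 40.2% in 1 cell, and 26 of the 27 Il17a UMIs came from 1 cell. Some dendritic lists were also higher, with the type 1 list at 1.47 against 0.545 and 2 of 3 measured genes at least 2 times higher, where 10.2% of all genes were. The list shared by dendritic cells was at 6.67 against 2.56. Other dendritic lists were lower, the type 2 one at 2.47 against 3.95 and the plasmacytoid one at 0.781 against 1.89. The part of dendritic RNA in these values was not tested.

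In the fibrosis library the 15 cycling T/NK cells held Nkg7 in 13, Cd3e in 4, Cd8a in 4 and Ncr1 in 4. Ncr1 was at 1.55 UMIs per 10000 in cycling and 1.09 in other cells (ratio 1.42, 0.854 to 2.30). The NK list as a whole was lower, as in the normal library, at 7.69 against 23.1 (ratio 0.332, 0.274 to 0.400). A second lineage reached at least 0.5 times the T/NK score in 9 of these 15 members, the endothelial one in 6 and the myeloid one in 3, and their lineage rests on few transcripts. The plasmacytoid dendritic list was at 4.90 against 2.38, with 3 of 4 measured genes at least 2 times higher where 10.6% of all genes were, and its part in these values was not tested.

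**Figure D5:**
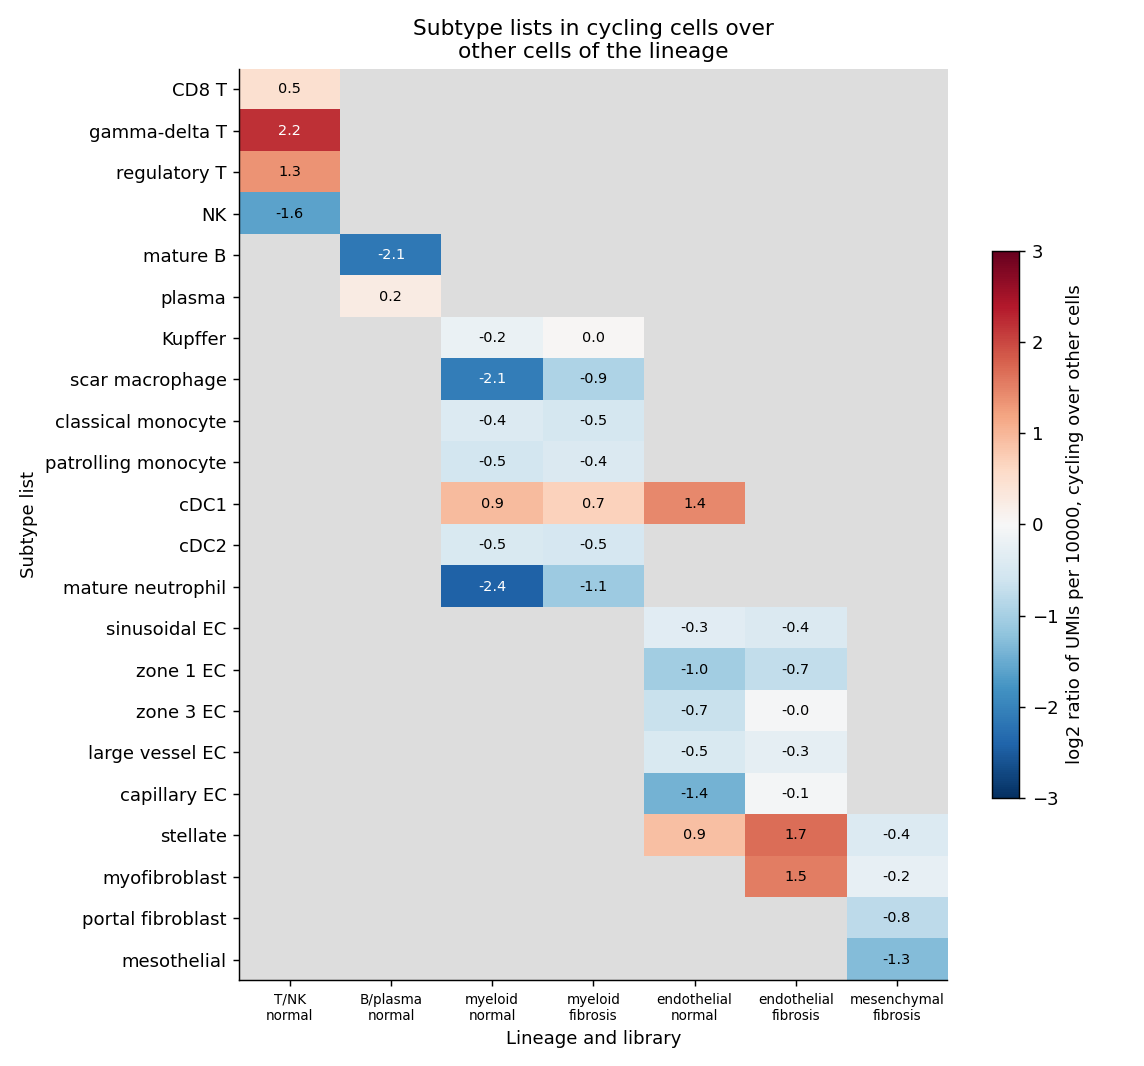
Log2 ratio of the summed UMIs per 10000 of each subtype list (rows) in cycling over other cells of a lineage and library (columns), with red for higher and blue for lower in cycling cells and grey where a list was not drawn because it belongs to another lineage or stayed under 2 UMIs per 10000 in both groups. In the endothelial columns the cDC1 (dendritic), stellate and myofibroblast lists are also drawn where they reach that level. The bluest cells are the mature neutrophil list (ratio 0.186) and the mature B list (ratio 0.228) of the normal library, and the stellate list of fibrosis endothelial cells is red (ratio 3.18).

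Beyond the lists, all genes were compared in each lineage. Among genes at 1 UMI per 10000 or more, at least 2 times higher in cycling cells were 267 of 2282 in normal T/NK (11.7%), 349 of 1846 in normal B/plasma (18.9%), 174 of 2106 in normal myeloid (8.26%) and 220 of 2398 in normal endothelial cells (9.17%). Among fibrosis cells they were 118 of 2090 in myeloid (5.65%), 150 of 2406 in endothelial (6.23%) and 130 of 2229 in mesenchymal cells (5.83%). Genes at least 2 times lower numbered 204 (8.94%), 292 (15.8%), 137 (6.51%) and 102 (4.25%) in the same normal lineages and 21 (1%), 23 (0.956%) and 25 (1.12%) in the fibrosis ones. Hist1h1b, a linker histone gene, was at 10.5 against 0.0425 UMIs per 10000 in normal T/NK cells, 5.43 against 0.118 in normal myeloid cells and at a ratio of 46.6 in fibrosis myeloid cells.

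The genes with the lowest ratios differed from lineage to lineage. In normal endothelial cells Igfbp5, which binds insulin-like growth factors, was at 0.157 against 2.59 UMIs per 10000 and Ednrb, an endothelin receptor, at 0.622 against 4.0. Igfbp5 was also the lowest in fibrosis endothelial cells, at a ratio of 0.222. In normal B/plasma cells Bach2, a factor that opposes plasma cell formation, was at a ratio of 0.0433, and in fibrosis myeloid cells Fn1, fibronectin, was at 4.04 against 11.7. In fibrosis mesenchymal cells Saa3, an acute phase protein, was at 10.8 against 32.0 and Fgl2 at 0.243 against 1.77. In normal myeloid cells the lowest genes included Krt8 and Krt18, keratins of epithelial cells, at ratios of 0.0584 and 0.124.

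The fibrosis over normal ratios within cycling cells were compared with those of the other cells of the lineage. In myeloid cells 167 of 2151 genes were at least 2 times higher (7.76%) and 95 lower (4.42%), and 89 (4.14%) had a log2 ratio at least 1 away from that of the other cells. Gpnmb led these 89, at 13.1 against 0 UMIs per 10000, at least 398 times higher when the normal side is set to 3 counts over the group, and 177 times in the other cells. Cd63, a lysosomal tetraspanin, had a ratio of 32.0 against 8.96 in the other cells and Sparc, a matrix protein, one of 18.9 against 5.13. In fibrosis myeloid cells the mesenchymal list was at 16.8 UMIs per 10000 in cycling and 12.0 in other cells, and the stellate list at 4.75 and 2.92. The part of such RNA in the Sparc ratio was not tested. In endothelial cells 144 of 2443 genes were at least 2 times higher (5.89%), 85 lower (3.48%) and 227 (9.29%) at least 1 away. These were led by Col1a1 at a ratio of 72.0 against 24.0 in the other cells, Tagln at 45.3, Col1a2 at 26.9 and Col3a1 at 26.1. The part of the 32 mixed members in these ratios was not tested. Naaa and Wdfy4, both dendritic cell genes, were on the low side at ratios of 0.136 and 0.115, and Naaa stood at 4.91 in the 8 normal endothelial members that the wider call named otherwise.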

How the data were processed

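Droplet libraries were made from non-parenchymal liver cells of 1 olive oil and 1 CCl4 mouse. The authors deposited 1 table of raw UMI counts per library (8130 and 6437 cells, 44062632 and 53288463 UMIs), made with Cell Ranger 3.0.1 against mm10 per the submitters' processing notes. These counts are not normalized and 0 columns were left unmapped. The study's methods state that doublets were removed with Scrublet; a rerun of Scrublet marked 1 cell per library and was not used as a filter, so doublets were not removed here.

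Cells over 10% mitochondrial UMIs (659 and 305) were dropped. Members were cells with at least 5 UMIs of Mki67 and Top2a, and lineages came from the rule genes. The members and gene lists were chosen with earlier results of these data known. Groups came from the labels. With 1 library per condition no test was run: levels are summed UMIs per 10000 with exact Poisson intervals, ratios have exact conditional intervals and shares Clopper-Pearson ones, all at 95% and for counting error only.

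Genes on the lists were counted at 0.2 UMIs per 10000 or more in either group. Other genes needed 1 UMI per 10000, no cell with over 25% of the UMIs, and were not mitochondrial, ribosomal, haemoglobin or immunoglobulin genes. Named genes were list genes, the 5 highest and 5 lowest cycling over other ratios per lineage and library with at least 20 cycling cells, and, for lineages with 20 in both libraries, the 5 highest and lowest fibrosis over normal ratios at least 1 log2 unit away from that of the other cells. On simulated counts for normal endothelial cells (2108 genes, 200 changed 4 times) 100 of 100 raised and 100 of 100 lowered genes were found, 0 of 1908 unchanged genes were called, and 96% of the ratio intervals held the true value. Those counts were drawn from the same Poisson model that the intervals assume, with no spread between cells. They check the calculation and cannot show how the intervals hold for real cells. Alternatives covered the threshold, marker genes, lineage call, mitochondrial limit, depth thinning, fold, level and doublet scores. Python 3.11.15, numpy 2.4.6, scipy 1.17.1, pandas 2.3.3, scanpy 1.11.5, anndata 0.12.19 and matplotlib 3.10.9 were used, and promoter sequences came from RefSeq (GRCm38.p6).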

Additional observations from a re-analysis of the deposited data

Results flagged for a closer look

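Cells over the mitochondrial limit, which entered no comparison, also held cycling transcripts. In the normal library 16 of 659 such cells (2.43%, 1.39 to 3.91) and in the fibrosis library 8 of 305 (2.62%, 1.14 to 5.10) carried at least 5 UMIs of Mki67 and Top2a. Their median mitochondrial shares were 10.4% and 10.3%, just past the limit.

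B/plasma and mesenchymal cells moved in opposite directions between the libraries. The fibrosis over normal ratio of the Mki67 and Top2a rate was 0.391 in B/plasma cells and 3.18 in mesenchymal cells. With 1 mouse per condition the difference between these ratios was not tested.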

How the results depend on the processing

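No paired analysis was possible because each condition has 1 library. The lineage call, the depth of the cells, the limit on mitochondrial UMIs and the unknown number of doublets limit these values, and no alternative measures the spread between mice. Of the shares of members by lineage, 78 of 96 alternative values stayed within the 95% interval of the reported one, as did 100 of 118 cycling shares by lineage, 4 of 10 cycling shares of all cells and 14 of 44 S-phase and G2/M levels. Of the counts of genes past 2 times, 14 of 42 stayed within 1.5 times. Counting on Cenpf, Prc1 and Ube2c, keeping cells that both lineage calls named alike, and dividing the endothelial members by the wider call were chosen after seeing the data.

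Counting at 5 UMIs of Cenpf, Prc1 and Ube2c, the cycling share was 2.67% of B/plasma, 5.0% of myeloid and 2.55% of endothelial cells in the normal library and 5.51% of myeloid and 2.82% of endothelial cells in the fibrosis library. At a threshold of 10 UMIs the shares were 2.80% and 4.27% of all normal and fibrosis cells, 2.39% of normal endothelial, 5% of fibrosis myeloid and 3.14% of fibrosis endothelial cells, with the S-phase level at 41.3 UMIs per 10000 in the normal library and the G2/M level at 139 and 99.9. At 3 UMIs they were 4.56% and 7.75% of all cells, 8.81% of normal myeloid, 4.10% of normal endothelial, 2.99% of fibrosis B/plasma, 9.94% of fibrosis myeloid and 6.20% of fibrosis endothelial cells, with S-phase levels of 38.8 and 31.0 and G2/M levels of 109 and 76.7.

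With 4 in place of 2 times, higher and lower genes numbered 136 and 15 in T/NK, 74 and 62 in B/plasma, 91 and 23 in myeloid and 120 and 7 in endothelial cells of the normal library, and 62 and 1 in myeloid, 56 and 1 in endothelial and 79 and 2 in mesenchymal cells of the fibrosis library. At a level of 0.2 they numbered 614 and 1082, 817 and 1241, 589 and 707, and 638 and 366 in the same normal lineages, and 439 and 115, 577 and 123, and 437 and 116 in the fibrosis ones.

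When the top lineage had to exceed the next by 2 times, fibrosis members were 27.9% endothelial and 18.9% mesenchymal. Below 5% mitochondrial UMIs the cycling share was 4.32% of all normal cells, 7.48% of T/NK, 12.4% of B/plasma and 8.95% of myeloid normal cells and 4.76% of fibrosis T/NK cells; normal members were then 17.5% B/plasma, 36.3% myeloid and 28.8% endothelial, and fibrosis members 2.02% T/NK, 36.4% myeloid, 23.2% endothelial and 34.3% mesenchymal. Thinned to 2000 UMIs, 4.22% of normal cells were cycling. Without the highest 5% of doublet scores the G2/M levels were 126 and 93.9.

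With each lineage score scaled, normal members were 36.2% endothelial, 5.22% mesenchymal and 2.61% erythroid, and fibrosis members 10.2% T/NK, 5.23% B/plasma, 29.4% endothelial and 1.45% erythroid. The S-phase and G2/M levels were then 51.5 and 167 in normal T/NK, 47.2 and 135 in normal endothelial, 54.6 and 117 in fibrosis T/NK and 37.0 and 76.7 in fibrosis endothelial cells, with G2/M at 114 in normal myeloid cells. By the wider lists fibrosis members were 28.5% endothelial and 36.9% mesenchymal, and 3.35% of fibrosis endothelial cells were cycling. The G2/M levels were then 176 in T/NK, 100.1 in B/plasma, 125 in myeloid and 118 in endothelial cells of the normal library, with S phase at 38.6 in myeloid cells. In the fibrosis library G2/M was at 133 in T/NK, and S phase and G2/M were at 39.8 and 91.5 in myeloid, 43.6 and 73.6 in endothelial and 26.6 and 95.1 in mesenchymal cells. The causes of these shifts were not tested.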

Other observations

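The cycling cells that the rule left unassigned numbered 9 of the normal and 12 of the fibrosis members. Ptprc, the common leukocyte antigen, had 3 or more UMIs in 7 of the 9 and in 7 of the 12, and Flt3 in 5 and 4. Epcam, an epithelial adhesion gene, stood at 2.94 UMIs per 10000 in these members and 0.674 in all cells of the normal library that were not cycling, and at 3.13 and 0.252 among fibrosis cells. The Epcam levels rest on few cells, since 1 of the 9 and 3 of the 12 held 3 or more of the 44 and 48 UMIs. Epcam and Spp1 both reached 3 UMIs in 1 normal and 3 fibrosis members.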
